A study of Homo sapiens with 6 samples.

Results

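The TNF superfamily ligands and receptors were examined in OV3/SCR and OV3/COX1KD cells. Members were chosen by symbol: genes whose name starts with TNFRSF or TNFSF, together with CD40, CD27, CD70, LTBR, LTB, NGFR, EDAR and EDA2R. This gave 38 of the 34811 genes in the count table, 13 ligands and 25 receptors. By textbook role, 15 receptors bind TRAF adaptors without a death domain, 7 carry a death domain and 3 are decoys.

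OVCAR-3, the parent of both, is a long-established line from a human ovarian carcinoma. OV3/COX1KD cells stably carry an shRNA against COX-1 (PTGS1) and OV3/SCR cells a scrambled shRNA in the same plasmid, and both were selected in puromycin. RNA was taken from 3 independent passages per condition of subconfluent cells grown in serum-containing medium. Each condition was 1 clone, so the spread between libraries is that between passages, and the knockdown and the choice of clone cannot be told apart.

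TNF superfamily ligands are mostly trimeric membrane proteins that can be shed by proteases, and they cluster their receptors on the cell surface. Receptors with a death domain can recruit adaptors that activate caspases or NF-κB, whereas receptors with TRAF-binding tails signal through NF-κB and stress kinases. Decoy receptors bind ligand without passing on the full signal. In ovarian cancer the family is best known for TNF-driven cytokine networks and for the death ligand TRAIL.

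The libraries held between 25291505 and 27391538 counts. A floor of 3 counts corresponded to between 0.110 and 0.119 CPM (counts scaled by TMM to a common library size), and it covers counting error only, because PCR copies are not independent molecules. The targeted gene, PTGS1, had 456, 486 and 501 counts under knockdown against 713, 658 and 641 in the control, 73.3% of the control level. The 9 epithelial and ovarian markers were all present, with a summed level of 5581 to 5646 CPM in OV3/SCR and 7169 to 7362 CPM in OV3/COX1KD. Of these markers 7 were higher and 2 lower, with log2 fold changes from -0.76 for PAX8 to 1.36 for MUC16, and KRT7 at -0.14. The 10 leukocyte markers measured summed to 2.21 to 2.57 CPM in OV3/SCR and to at most 2.35 CPM in OV3/COX1KD, and 2 of them had no more than 3 counts in any library. Their defining gene PTPRC had 2 to 8 counts per library, and the macrophage gene CSF1R had 0 counts in every OV3/COX1KD library. The 9 fibroblast and endothelial markers measured summed to 13.9 to 14.6 CPM and 10.2 to 10.9 CPM, most of it COL1A1, which was lower with a log2 fold change of -0.77. In bulk RNA, fewer cells of a type and less RNA per cell cannot be told apart.

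Many members of the family were scarce in these cells. Of the 38 members, 10 had at most 3 counts in every library and 15 failed the filter on low counts, which left 7 ligands and 16 receptors for the test. Levels were compared between genes as CPM per kb of exon. In OV3/SCR this level was highest for TNFRSF12A, the receptor for the ligand TWEAK, at 139 ± 3.28 (SD, n = 3). Next came TNFRSF25, a death domain receptor for the ligand TNFSF15, at 39.7 ± 0.956, and TNFRSF10B, a death receptor for TRAIL, at 22.4 ± 0.439. The TNF receptor TNFRSF1A, at 14.9 ± 0.577, and the lymphotoxin receptor LTBR, at 13.9 ± 0.278, lay close together. TNFRSF10A followed at 8.10 ± 0.115 and TNFRSF21 at 5.37 ± 0.360. No ligand exceeded TNFSF9, at 2.31 ± 0.273, so the 7 highest levels all belonged to receptors.

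**Figure D1:**
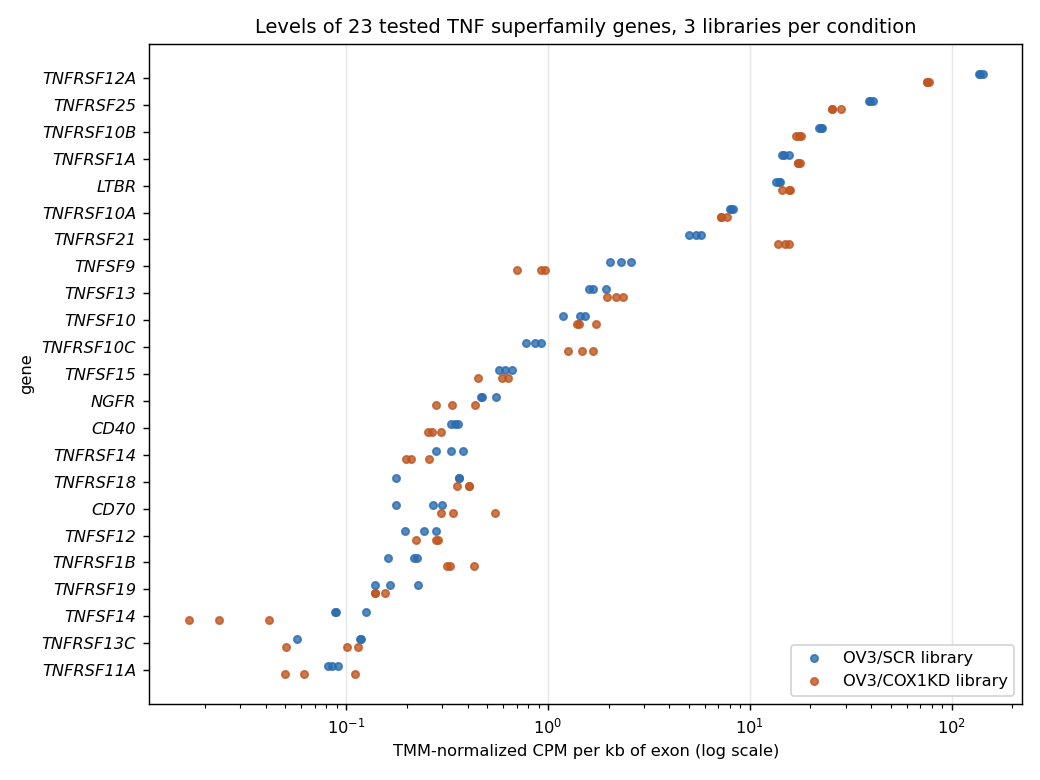
Level of each tested member in each library, as CPM per kb of exon on a log axis, with 3 OV3/SCR libraries in blue and 3 OV3/COX1KD libraries in orange. The 7 receptors at the top lie above every ligand in OV3/SCR, TNFRSF21 is far to the right in OV3/COX1KD, and TNFSF9 and TNFSF14 are far to the left.

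The order of the levels shifted in OV3/COX1KD below the first 5 places. TNFRSF21 rose to 14.8 ± 0.937 CPM per kb and stood within the spread of LTBR, at 15.3 ± 0.702. TNFRSF10B and TNFRSF1A could no longer be told apart, both at 17.5 CPM per kb, with SDs of 0.506 and 0.247. TNFSF9 dropped from the eighth place to the eleventh, at 0.865 ± 0.140, and TNFSF13 became the highest ligand, at 2.17 ± 0.197. The level of TNFSF13 is uncertain, because a readthrough gene covers 55.5% of its exon bases, and its own change did not pass the test.

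The comparison of OV3/COX1KD with OV3/SCR asks how the superfamily differed between COX-1 knockdown and control cells. By edgeR's quasi-likelihood test, 10 of the 23 tested members passed an FDR under 0.01, 5 higher and 5 lower. Over all 17309 genes tested 47.9% passed, 25.8% higher and 22.1% lower, so the members' share of 43.5% was near the background. With a log2 fold change beyond 0.5 as well, 3 members were higher and 4 lower, where 9.87% and 10.0% of all genes tested were, or 19.9% together. TNFSF14 is among the lower members in both counts. It passed the filter on low counts through OV3/SCR alone, so it had to be lower in OV3/COX1KD. The median log2 fold change was -0.14 over the 23 members and -0.0087 over all genes tested. The OV3/COX1KD libraries lay entirely above the OV3/SCR libraries for 6 members and entirely below them for 9, and 63.2% of all genes tested did not overlap in this way. The count of higher members was 3 without OV3/SCR replicate 1, 2 without OV3/SCR replicate 3 and 3 without OV3/COX1KD replicate 1. Beyond 0.5 it was 1 without OV3/SCR replicate 3.

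**Figure D2:**
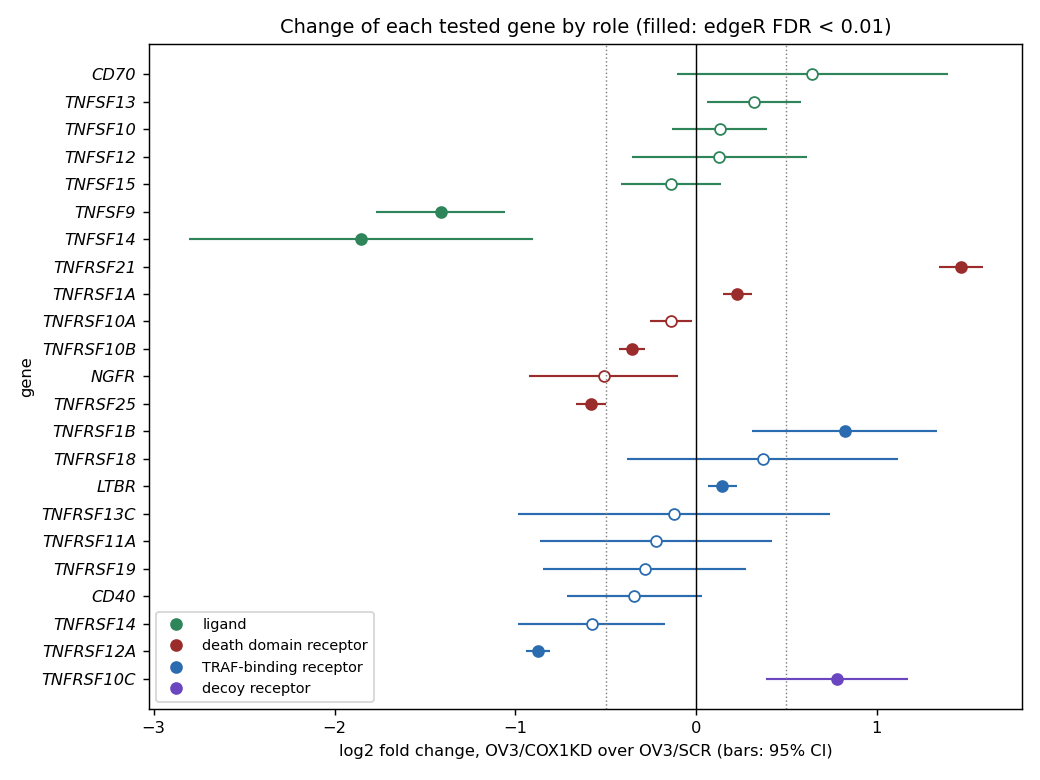
Log2 fold change of OV3/COX1KD over OV3/SCR for the 23 tested members, grouped by role, with 95% confidence intervals from the edgeR fit. Filled points passed an FDR under 0.01, dotted lines mark 0.5 in either direction, and the widest interval belongs to TNFSF14.

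**Figure D3:**
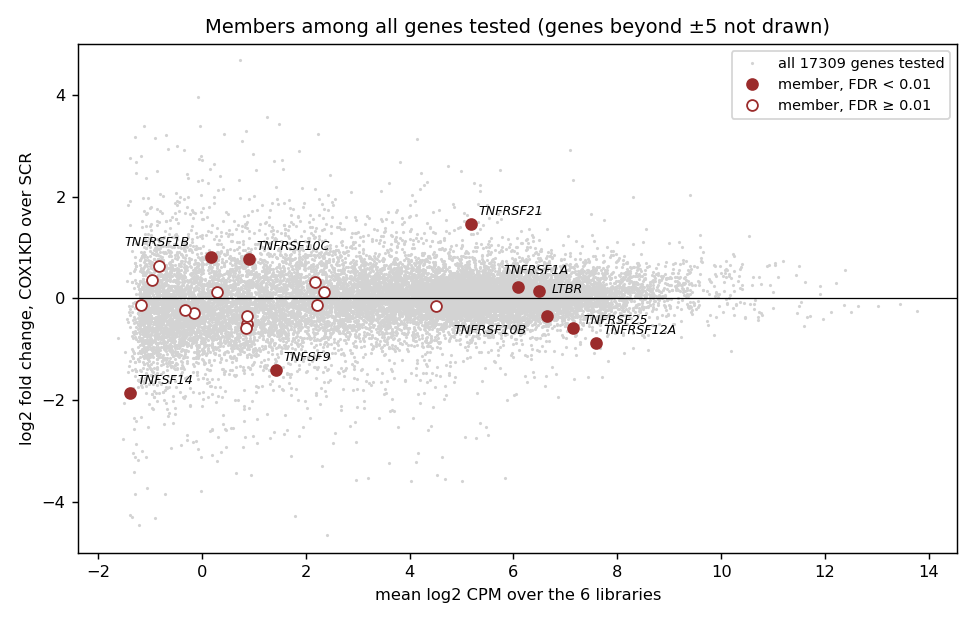
Log2 fold change against mean log2 CPM over the 6 libraries for all 17309 genes tested (grey; 5 genes beyond 5 in either direction are not drawn) and for the 23 tested members (red; filled where FDR was under 0.01). TNFRSF21 stands above most genes of its abundance, and most other members lie inside the grey cloud.

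Promoters of 5 of the 7 members called beyond 0.5 on the log2 scale are shown, because of those calls. The direction of TNFSF14 was fixed by the filter on low counts, which it passed through OV3/SCR alone. TNFRSF12A and TNFRSF10C are not shown. Each sequence is the 250 bases upstream of the RefSeq start, 5′ to 3′ on the gene's strand, taken from RefSeq's GRCh38.p14 promoter table and placed on GRCh37 by exact match. Capitals mark every match to 4 motifs searched on both strands.

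TNFSF14, chr19:6670172-6670421, minus strand: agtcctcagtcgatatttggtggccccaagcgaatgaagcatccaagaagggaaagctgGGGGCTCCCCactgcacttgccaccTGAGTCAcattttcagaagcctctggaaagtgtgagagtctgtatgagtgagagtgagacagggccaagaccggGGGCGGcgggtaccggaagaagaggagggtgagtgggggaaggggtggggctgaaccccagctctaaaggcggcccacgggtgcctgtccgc

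TNFSF9, chr19:6530787-6531036, plus strand: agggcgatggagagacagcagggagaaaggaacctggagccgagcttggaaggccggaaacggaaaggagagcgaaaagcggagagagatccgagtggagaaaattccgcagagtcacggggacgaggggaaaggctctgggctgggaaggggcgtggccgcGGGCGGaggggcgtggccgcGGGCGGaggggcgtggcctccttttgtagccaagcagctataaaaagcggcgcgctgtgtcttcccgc

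TNFRSF1B, chr1:12226798-12227047, plus strand: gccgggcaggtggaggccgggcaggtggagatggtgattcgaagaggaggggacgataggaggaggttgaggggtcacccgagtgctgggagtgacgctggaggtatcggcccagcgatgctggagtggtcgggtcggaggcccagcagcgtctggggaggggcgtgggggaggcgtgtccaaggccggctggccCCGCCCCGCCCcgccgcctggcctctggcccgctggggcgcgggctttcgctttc

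TNFRSF21, chr6:47277642-47277891, minus strand: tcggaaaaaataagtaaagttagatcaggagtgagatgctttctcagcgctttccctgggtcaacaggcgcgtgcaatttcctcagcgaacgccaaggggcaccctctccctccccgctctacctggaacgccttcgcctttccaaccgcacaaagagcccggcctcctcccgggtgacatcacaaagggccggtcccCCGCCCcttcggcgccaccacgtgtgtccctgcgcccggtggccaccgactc

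TNFRSF25, chr1:6526234-6526483, minus strand: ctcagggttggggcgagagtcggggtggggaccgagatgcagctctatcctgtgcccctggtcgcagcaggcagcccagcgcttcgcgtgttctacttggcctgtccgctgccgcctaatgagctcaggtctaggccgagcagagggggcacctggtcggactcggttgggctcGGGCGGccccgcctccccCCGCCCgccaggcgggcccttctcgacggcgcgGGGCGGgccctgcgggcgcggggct

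The motifs were the κB consensus, the GC box GGGCGG, the AP-1 site TGANTCA and the cAMP response element TGACGTCA. They were found in 5.05%, 42.3%, 6.60% and 1.77% of 27305 promoters of the same length, and in 4, 12, 4 and 0 of the 23 members that matched an entry. TNFSF14 held a κB match at -191 to -182, an AP-1 match at -166 to -160 and a GC box at -92 to -87, counted from the start. The other promoters held only GC boxes, 2 in TNFSF9, 2 overlapping in TNFRSF1B, 1 in TNFRSF21 and 3 in TNFRSF25. A match describes these letters and does not show that a factor binds there. The TNFSF14 stretch lies inside the gene as GENCODE 44 draws it, because the RefSeq start is further downstream.

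Among the ligands, TNFSF9 and TNFSF14 were lower in OV3/COX1KD and the other 5 tested did not pass, where 22.1% of all genes were lower. TNFSF9 (ENSG00000125657, GRCh37 chr19:6531037-6535935), a costimulatory ligand of T cells, had 101, 110 and 86 counts in OV3/SCR and 29, 38 and 42 in OV3/COX1KD. Every knockdown library was far below every control library. The level fell from 3.77 ± 0.447 to 1.41 ± 0.229 CPM (SD, n = 3), a log2 fold change of -1.41 (SE 0.17, edgeR FDR 6.8e-07). Its receptor TNFRSF9 had between 0 and 3 counts in every library, so the receptor was not detectable at this depth.

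TNFSF14 (ENSG00000125735, GRCh37 chr19:6661264-6670599), also called LIGHT, is a ligand of TNFRSF14 and LTBR. It had 16, 11 and 11 counts in OV3/SCR and 2, 5 and 3 in OV3/COX1KD. The groups did not overlap, but all 6 values were small, and the gene passed the low-count filter through OV3/SCR alone, and a gene that passed in this way had to be higher there. The log2 fold change was -1.86 (SE 0.45, edgeR FDR 0.00165), and the FDR became 0.0124 with DESeq2. It was 0.0129 without OV3/SCR replicate 1, 0.0129 without OV3/COX1KD replicate 1 and 0.0102 without OV3/COX1KD replicate 3. TNFSF14 and TNFSF9 lie on the same arm of chromosome 19, and the median log2 fold change of the 63 neighbours within 2 Mb whose mean log2 CPM reached 1 was 0.058 for TNFSF9 and 0.034 for TNFSF14. CD70, whose gene lies between them, had 11, 12 and 7 counts in OV3/SCR and 13, 21 and 12 in OV3/COX1KD, with a log2 fold change of 0.64 (SE 0.36, edgeR FDR 0.131).

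TRAIL itself, TNFSF10 (ENSG00000121858, GRCh37 chr3:172223298-172241265), had 133, 107 and 136 counts in OV3/SCR and 123, 121 and 159 in OV3/COX1KD. The libraries of both conditions overlapped. Its log2 fold change was 0.13, with a 95% interval from -0.13 to 0.39 (edgeR FDR 0.388). TWEAK, TNFSF12, had 24, 29 and 33 counts in OV3/SCR and 33, 32 and 27 in OV3/COX1KD, a log2 fold change of 0.13 with an interval from -0.35 to 0.61 (edgeR FDR 0.653). TNFSF13 or APRIL, a B-cell survival ligand, had 102, 95 and 114 counts against 113, 135 and 132. The groups overlapped by 1 count before scaling and not after it, and its log2 fold change of 0.32 (SE 0.12) missed the threshold at an edgeR FDR of 0.0327. In the annotation 55.5% of TNFSF13 exon bases and 12.1% of TNFSF12 exon bases are also covered by the readthrough gene TNFSF12-TNFSF13, so the counts of both are uncertain. TNFSF15, the ligand of TNFRSF25, had a log2 fold change of -0.14 and an edgeR FDR of 0.380.

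The remaining 6 ligands were not tested. LTB, a subunit of membrane lymphotoxin, had 5, 5 and 4 counts in OV3/SCR and 2, 2 and 1 in OV3/COX1KD. TNFSF18 had 2, 3 and 5 counts against 0, 2 and 5. TNFSF4, TNFSF8, TNFSF11 and TNFSF13B had at most 3 counts in any library. These are costimulatory or lymphoid ligands, and the leukocyte markers were near the floor in the same libraries.

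Among the 7 death domain receptors, 2 were higher, 2 lower and 2 did not pass, and EDAR was at the floor. Of all genes tested, 25.8% were higher and 22.1% lower. TNFRSF21 (ENSG00000146072, GRCh37 chr6:47199268-47277641), also called DR6, is a death domain receptor studied in nerve cells and T cells. It had 479, 509 and 531 counts in OV3/SCR and 1425, 1250 and 1427 in OV3/COX1KD. Every knockdown library was far above every control library. The level rose from 19.3 ± 1.29 to 53.3 ± 3.37 CPM, 2.76-fold, a log2 fold change of 1.46 (SE 0.058, edgeR FDR 5.1e-14). Among the 9 genes within 2 Mb whose mean log2 CPM reached 1, the median log2 fold change was 0.29, with 7 values above 0. Their part in the result was not tested.

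TNFRSF25 (ENSG00000215788, GRCh37 chr1:6520846-6526235), also called DR3, had 4628, 4402 and 4278 counts in OV3/SCR and 2752, 3046 and 2906 in OV3/COX1KD. The groups were well apart. The level fell from 169 ± 4.07 to 113 ± 7.12 CPM, to 66.9% of the control, a log2 fold change of -0.58 (SE 0.039, edgeR FDR 1.7e-10). PLEKHG5, a guanine nucleotide exchange factor gene, ends 946 bases upstream on the same strand. It also fell, with a log2 fold change of -0.26 (SE 0.035, edgeR FDR 2.8e-06). Opposite-strand genes, among them ESPN, cover 8.98% of TNFRSF25 exon bases, and the kit does not mark strand. The part of read-through or opposite-strand transcripts in the TNFRSF25 counts was not tested.

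TNFRSF1A (ENSG00000067182, GRCh37 chr12:6437923-6451280), the main TNF receptor of most tissues, had 1659, 1708 and 1572 counts in OV3/SCR and 1845, 1876 and 1942 in OV3/COX1KD. All 3 knockdown libraries were above the controls by a small margin. The level rose from 62.8 ± 2.43 to 73.6 ± 1.04 CPM, a log2 fold change of 0.23 (SE 0.039, edgeR FDR 4.2e-05). NGFR, a neurotrophin receptor, had 61, 51 and 50 counts against 35, 45 and 31. A gene on the opposite strand covers 27.2% of its exon bases, and the kit does not mark strand, so its counts are uncertain. Its log2 fold change of -0.51 (SE 0.20) missed the threshold at an edgeR FDR of 0.0319, which became 0.00635 without OV3/COX1KD replicate 2.

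The receptors for TRAIL did not move in 1 direction. TNFRSF10B (ENSG00000120889, GRCh37 chr8:22877646-22926544), or DR5, had 2931, 2941 and 2954 counts in OV3/SCR and 2142, 2213 and 2401 in OV3/COX1KD. The control libraries were nearly alike and all knockdown libraries lower. The level fell from 112 ± 2.20 to 87.7 ± 2.53 CPM, a log2 fold change of -0.35 (SE 0.035, edgeR FDR 3.9e-08). Among the 25 genes within 2 Mb whose mean log2 CPM reached 1, the median log2 fold change was -0.17, with 19 values below 0. TNFRSF10A (ENSG00000104689, GRCh37 chr8:23047965-23082615), or DR4, had 627, 615 and 624 counts against 529, 567 and 560. Its log2 fold change was -0.14 (SE 0.055, edgeR FDR 0.0356), and it passed under total count scaling, at -0.22 with an FDR of 0.00224. Over the 26 such genes around TNFRSF10A the median was -0.19, with 20 values below 0. The part of the neighbours in either result was not tested. Opposite-strand genes cover 16.7% of TNFRSF10A exon bases, so its counts are uncertain too. For TNFRSF10B they cover 7.52%, and their part in its counts was not tested. Total count scaling moved the median of all genes tested to -0.086.

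The decoy TNFRSF10C (ENSG00000173535, GRCh37 chr8:22960434-22974958) binds TRAIL without an intracellular death domain. It had 38, 35 and 31 counts in OV3/SCR and 49, 65 and 61 in OV3/COX1KD. Its groups did not overlap and it rose from 1.32 ± 0.114 to 2.27 ± 0.323 CPM, a log2 fold change of 0.78 (SE 0.19, edgeR FDR 0.00142). The FDR was 0.0103 without OV3/SCR replicate 3. An annotated overlapping gene, ENSG00000284948, covers 33.0% of its exon bases, so its counts are uncertain. The decoys TNFRSF10D and TNFRSF11B, the secreted osteoprotegerin, had at most 2 counts in any library.

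The makeup of the TRAIL receptors was computed per library as a share of their summed CPM per kb, a description with no test. TNFRSF10B made up 71.4 ± 0.379% in OV3/SCR and 66.5 ± 1.17% in OV3/COX1KD. TNFRSF10A made up 25.8 ± 0.191% and 27.9 ± 0.865%. The decoy TNFRSF10C made up 2.73 ± 0.274% and 5.57 ± 0.628%. The decoy TNFRSF10D, at the floor, made up 0.0344 ± 0.0343% and 0.0147 ± 0.0255%. Most TRAIL receptor mRNA thus came from the death domain receptors in all 6 libraries.

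Of the 15 TRAF-binding receptors, 9 were tested, of which 2 were higher and 1 lower, where 47.9% of all genes tested passed. TNFRSF12A (ENSG00000006327, GRCh37 chr16:3068446-3072384), or Fn14, binds TWEAK and is known to be induced by growth factors and injury. It had 6669, 6704 and 6347 counts in OV3/SCR and 3417, 3484 and 3625 in OV3/COX1KD. The groups were far apart and narrow. The level fell from 251 ± 5.91 to 137 ± 1.80 CPM, to 54.6% of the control, a log2 fold change of -0.87 (SE 0.031, edgeR FDR 9.1e-15). Genes on the opposite strand, among them CLDN6, cover 2.22% of TNFRSF12A exon bases, and their part in its counts was not tested. Over 111 such neighbours of TNFRSF12A within 2 Mb whose mean log2 CPM reached 1, the median log2 fold change was -0.018. Its ligand TWEAK, described above, did not pass the test.

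TNFRSF1B (ENSG00000028137, GRCh37 chr1:12227048-12269285), the TNF receptor known mainly from immune cells, had 22, 16 and 22 counts in OV3/SCR and 41, 30 and 33 in OV3/COX1KD. The groups did not overlap, at low counts. The log2 fold change was 0.82 (SE 0.24, edgeR FDR 0.00728). The FDR was 0.0315 with DESeq2 and 0.0131 under total count scaling. It was 0.0157, 0.0396 and 0.0137 without OV3/SCR replicates 1, 2 and 3, and 0.0493 and 0.0117 without OV3/COX1KD replicates 1 and 3. Per length, TNFRSF1A was far above TNFRSF1B in both conditions, at 17.5 CPM per kb against 0.358 in OV3/COX1KD.

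LTBR (ENSG00000111321, GRCh37 chr12:6484211-6500737), which activates the non-canonical NF-κB route, had 2225, 2262 and 2218 counts in OV3/SCR and 2450, 2412 and 2381 in OV3/COX1KD. The knockdown libraries were slightly higher. Opposite-strand genes cover 6.86% of LTBR exon bases, and their part in its counts was not tested. The level was 85.2 ± 1.71 CPM against 94.2 ± 4.32 CPM, a log2 fold change of 0.14 (SE 0.038, edgeR FDR 0.00326). The change was 0.066 with an FDR of 0.139 under total count scaling, and the FDR was 0.0121 with DESeq2. It was 0.0224 and 0.0128 without OV3/SCR replicates 1 and 3, and 0.0238 without OV3/COX1KD replicate 1.

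The other 6 tested TRAF-binding receptors did not pass. TNFRSF14, the receptor of LIGHT, whose exon bases are covered to 13.3% by an opposite-strand gene, came nearest, with 63, 54 and 45 counts in OV3/SCR and 33, 40 and 33 in OV3/COX1KD. Its log2 fold change was -0.58 (SE 0.19, edgeR FDR 0.0157), and the FDR was 0.00687 under total count scaling and 0.00660 without OV3/COX1KD replicate 2. CD40, a receptor of antigen-presenting cells that carcinomas can also carry, had 54, 51 and 48 counts against 42, 36 and 40. Its groups did not overlap, but its log2 fold change of -0.34 had an edgeR FDR of 0.109. TNFRSF11A, TNFRSF13C, TNFRSF18 and TNFRSF19 had 5 to 30 counts per library and edgeR FDRs from 0.380 to 0.817.

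The untested TRAF-binding receptors are largely costimulatory receptors of lymphocytes. TNFRSF4 had 6, 14 and 8 counts in OV3/SCR and 6, 3 and 3 in OV3/COX1KD, and TNFRSF8 had 12, 6 and 10 against 6, 5 and 10. CD27, TNFRSF9, TNFRSF17 and EDA2R had at most 4 counts in any library. When all genes were tested without the filter, none of the 15 members left out passed, and the smallest FDR among them was 0.0918, for TNFRSF4.

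The summed receptor mRNA was lower and its makeup differed in OV3/COX1KD, described here with no test. The sum over the 25 receptors was 247 ± 4.04 CPM per kb in OV3/SCR and 179 ± 3.07 in OV3/COX1KD. TNFRSF12A made up 56.4 ± 0.413% of it in OV3/SCR and 42.5 ± 0.239% in OV3/COX1KD, the largest share in all 6 libraries. TNFRSF21 went from 2.18 ± 0.159% to 8.30 ± 0.638%. TNFRSF1A went from 6.05 ± 0.134% to 9.80 ± 0.0300% and LTBR from 5.62 ± 0.108% to 8.57 ± 0.340%. TNFRSF25, the next largest, went from 16.1 ± 0.411% to 14.9 ± 0.678%. The libraries of the 2 conditions did not overlap for any of these shares. The 7 death domain receptors together held 36.9 ± 0.361% in OV3/SCR and 47.1 ± 0.146% in OV3/COX1KD. Their summed level was lower, 91.0 ± 0.601 CPM per kb in OV3/SCR against 84.1 ± 1.54 in OV3/COX1KD, while TNFRSF12A in the same sum was lower by more. Without TNFRSF12A the receptors summed to 108 ± 0.802 CPM per kb in OV3/SCR and 103 ± 2.12 in OV3/COX1KD.

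**Figure D4:**
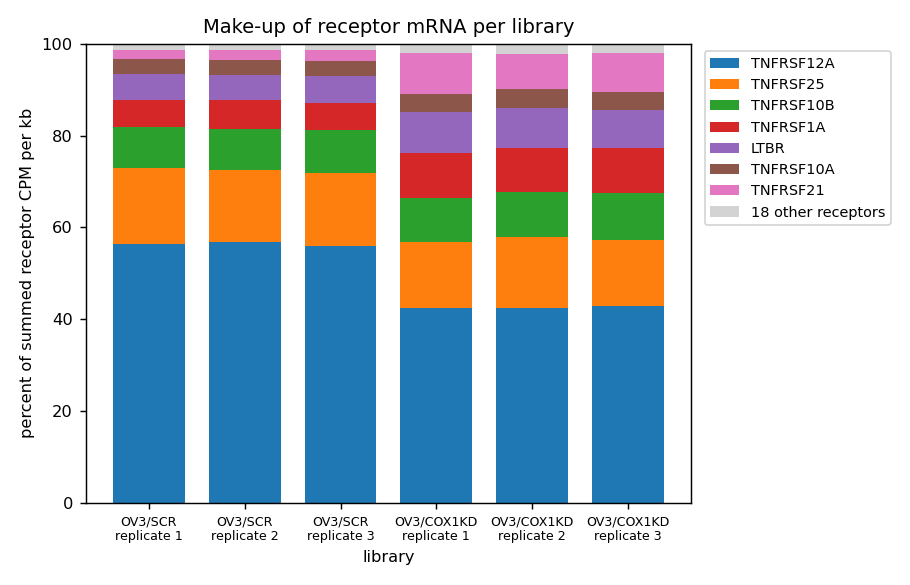
Share of each receptor in the summed CPM per kb of the 25 receptors, 1 bar per library. TNFRSF12A takes 56.4% on average in OV3/SCR and 42.5% in OV3/COX1KD, and TNFRSF21 goes from 2.18% to 8.30%.

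The ligand sum was 6.82 ± 0.0242 CPM per kb in OV3/SCR and 5.90 ± 0.428 in OV3/COX1KD. TNFSF9 made up 33.8 ± 3.89% of it in OV3/SCR and 14.6 ± 1.38% in OV3/COX1KD. TNFSF13 went from 25.5 ± 2.66% to 36.7 ± 1.73%, and TNFSF10 from 20.4 ± 2.63% to 25.7 ± 2.61%. The libraries of both conditions did not overlap for any of these shares, though for TNFSF10 the gap was narrow. The counts of TNFSF10 itself overlapped, and TNFSF13 did not pass the test and has uncertain counts, while TNFSF9 in the same sum was lower.

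Superfamily genes named outside the symbol rule were followed as well. TNF itself had at most 2 counts in any library, and LTA and CD40LG at most 3, so the founding ligands were at the floor in both conditions. FAS, the prototype death receptor, had 463, 463 and 465 counts in OV3/SCR and 408, 378 and 383 in OV3/COX1KD. Its log2 fold change of -0.22 had an edgeR FDR of 0.00685. That FDR rose to 0.0215 without the filter, 0.0267 with DESeq2, and 0.0158, 0.0234 and 0.0311 without OV3/SCR replicates 1, 2 and 3. It was 0.0113 and 0.0442 without OV3/COX1KD replicates 2 and 3. RELT, an orphan receptor, fell from 1345, 1353 and 1330 counts to 666, 683 and 680, a log2 fold change of -0.96 (edgeR FDR 7.7e-13). EDA, the ligand of EDAR and EDA2R, rose from 509, 574 and 544 counts to 976, 807 and 952, a log2 fold change of 0.78 (edgeR FDR 5.8e-09). EDAR and EDA2R had at most 1 count in any library.

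Among 22 receptor adaptors and ubiquitin enzymes, 2 were higher, 7 lower and 13 did not pass, beside 47.9% of all genes tested that passed. Their median log2 fold change was -0.13, and that of all genes tested was -0.0087. TNFAIP3 (A20), a deubiquitinating brake on NF-κB, had 270, 282 and 251 counts in OV3/SCR and 61, 54 and 67 in OV3/COX1KD, a log2 fold change of -2.11 (edgeR FDR 3.5e-12). BIRC3, a TRAF-bound ubiquitin ligase, had 22, 15 and 17 counts against 8, 6 and 0, a log2 fold change of -1.89 (edgeR FDR 0.00278). It passed the low-count filter through OV3/SCR alone, so it had to be lower in OV3/COX1KD. The FDR of BIRC3 was 0.0189 and 0.0104 without OV3/SCR replicates 1 and 3, and 0.0133 without OV3/COX1KD replicate 3, where the change was -1.29. CYLD, another deubiquitinase, changed by -0.42 and RBCK1, a subunit of the linear ubiquitin ligase, by -0.34 on the log2 scale. Of the core adaptors, TRADD, FADD, RIPK1, TRAF1, TRAF4, TRAF5 and TRAF6 did not pass. TRAF2 was lower, at -0.33 (edgeR FDR 4.0e-05), and so was TRAF3, at -0.26 (edgeR FDR 3.9e-05). The 2 higher genes were TAB2, at 0.34, and SHARPIN, at 0.24.

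Of 9 tested genes of death signalling, 3 were higher, 2 lower and 4 did not pass, with a median log2 fold change of -0.093, where 47.9% of all genes tested passed. MLKL, the effector of necroptosis, had 159, 172 and 169 counts in OV3/SCR and 53, 77 and 62 in OV3/COX1KD, a log2 fold change of -1.35 (edgeR FDR 5.8e-08). Other changes were small, at -0.21 for BID, which links death receptors to mitochondria, and 0.29 for CFLAR, an inhibitor of caspase activation at the receptor. The initiator caspases CASP8 and CASP10 did not pass.

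Of the 4 genes of the non-canonical NF-κB route, 3 were lower and MAP3K14 did not pass, where 22.1% of all genes tested were lower. Their median log2 fold change was -0.47. NFKB2 changed by -0.70 (edgeR FDR 1.7e-12) and its partner RELB by -0.68 (edgeR FDR 3.5e-08). CHUK, a kinase of the route as MAP3K14 is, changed by -0.16 (edgeR FDR 0.00292). The FDR of CHUK was 0.0197 without the filter, 0.0109 with DESeq2, 0.0109 and 0.0201 without OV3/SCR replicates 2 and 3, and 0.0224 without OV3/COX1KD replicate 1. The study singled out these genes from the same libraries, so their direction is not independent evidence. It reported MAP3K14 as down-regulated with the others, from DESeq2. Here the log2 fold change of MAP3K14 was -0.25, at an edgeR FDR of 0.0414.

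Of 15 tested genes that TNF is known to induce through NF-κB, 2 were higher, 9 lower and 4 did not pass, beside 25.8% higher and 22.1% lower over all genes tested. Several of them were named by the study from these libraries, so their direction is not independent evidence. The median log2 fold change was -0.69. The chemokine gene IL8 had 207, 153 and 141 counts in OV3/SCR and 9, 5 and 11 in OV3/COX1KD, a log2 fold change of -4.27 (edgeR FDR 8.2e-12). CXCL1, a related chemokine, had 227, 217 and 190 counts against 75, 59 and 63, a log2 fold change of -1.65 (edgeR FDR 6.9e-10). The cytokine IL6 had 19, 27 and 22 counts against 1, 2 and 0, and the chemokine CCL20 had 19, 14 and 23 against 2, 2 and 2. IL6 and CCL20 are 2 of the 9 lower genes and passed the low-count filter through OV3/SCR alone, so they had to be lower. The 2 higher genes were CSF1, a macrophage growth factor, with a log2 fold change of 1.58 (edgeR FDR 1.7e-11), and CD83, a surface protein of activated immune cells, at 0.87 (edgeR FDR 6.8e-05). Among 5 proteases and partners that shed or process superfamily proteins, FURIN changed by -0.68 and RHBDF1 by -0.32, and the sheddase ADAM17 by 0.28. ADAM10 and RHBDF2 did not pass.

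**Figure D5:**
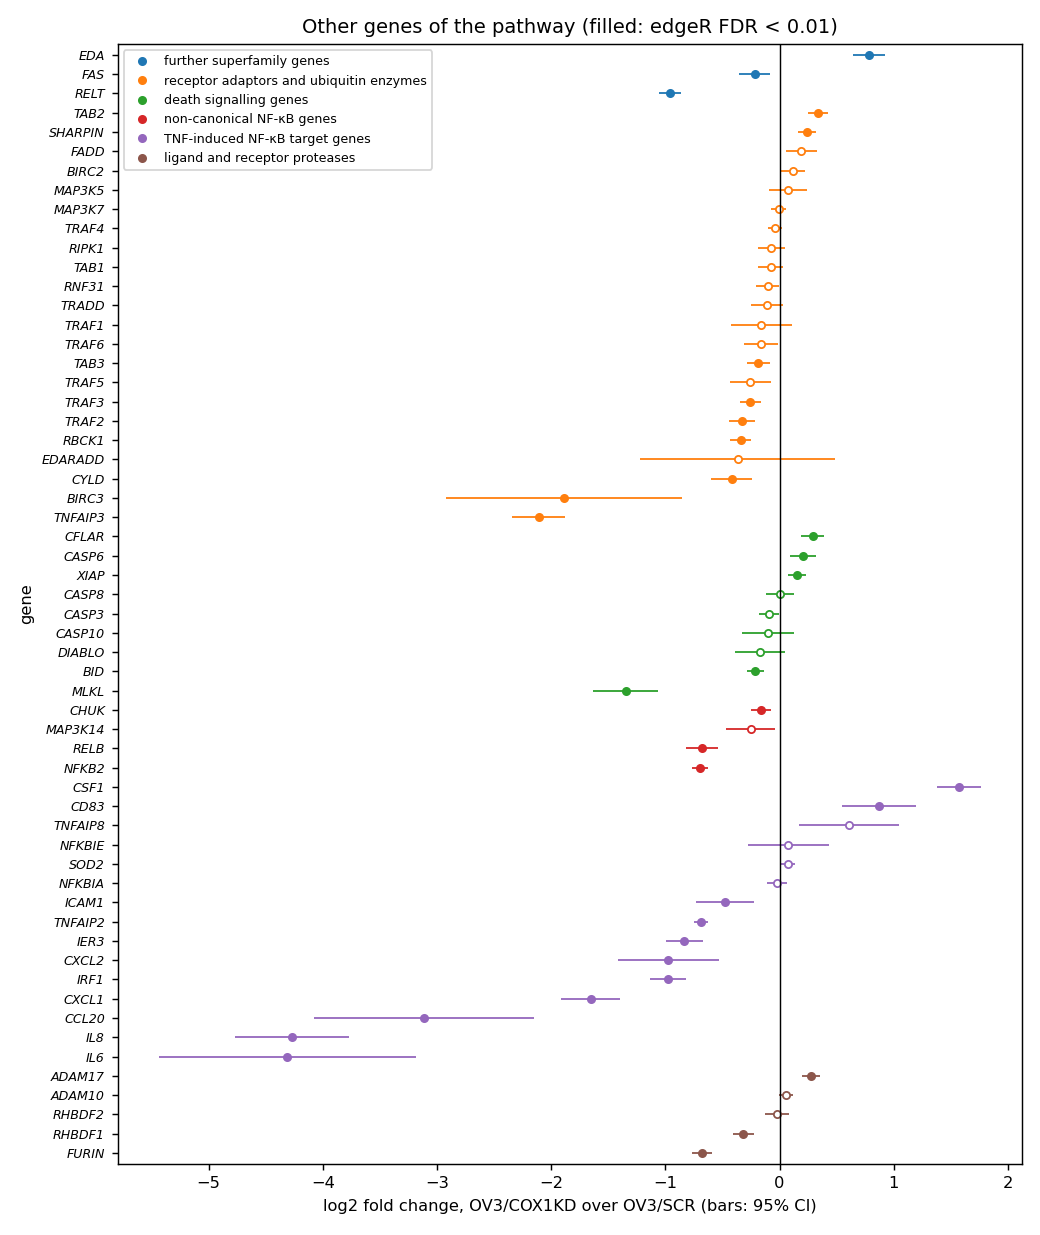
Log2 fold change of OV3/COX1KD over OV3/SCR for the tested genes of the 6 pathway lists, with 95% confidence intervals from the edgeR fit, filled where FDR was under 0.01. IL6, IL8, CCL20, TNFAIP3 and BIRC3 lie furthest to the left, and the fitted values of IL6 and CCL20 depend on the prior count, because OV3/COX1KD had at most 2 counts of each.

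Ligands and receptors that bind each other were set side by side by their log2 fold changes. For TWEAK and its receptor TNFRSF12A the values were 0.13 and -0.87, and the first did not pass. For TNFSF15 and TNFRSF25 they were -0.14 and -0.58, and only the receptor passed. For LIGHT they were -1.86 in the ligand, -0.58 in TNFRSF14 and 0.14 in LTBR, and TNFRSF14 did not pass. The direction of LIGHT was fixed by the low-count filter, so it says nothing about a match with its receptors. Both LIGHT and LTBR lost their calls under some of the alternatives. For TRAIL, the ligand was at 0.13 and its receptors ran from -0.35 for TNFRSF10B to 0.78 for TNFRSF10C. In none of these sets did ligand and all receptors pass in the same direction.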

How the data were processed

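RNA-seq was measured in 3 OV3/SCR and 3 OV3/COX1KD libraries, made with a kit that does not mark strand. The deposited values are raw counts for 34811 genes, not normalized, which the authors obtained with HTSeq from TopHat2 alignments to hg19. The gene annotation and the counting's strand setting are not given in the sources used here. Groups and replicate numbers came from the labels.

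The test was edgeR 4.0.16 under R 4.3.3 (TMM scaling, filterByExpr, glmQLFit and glmQLFTest, condition as the only factor, Benjamini-Hochberg adjustment over the 17309 genes kept). A member was called at an FDR under 0.01, and a further count also needed a log2 fold change beyond 0.5. An SE is the absolute log2 fold change divided by the square root of F. The biological coefficient of variation was 3.21%. DESeq2 1.42.0 was an alternative, as were total count scaling, RLE size factors, a minimum of 10 counts in every library, no filter, a replicate block and leaving out each library. Leaving out libraries for the shares of summed levels was chosen after seeing the data. Libraries of 1 condition differed by more than sampling noise (chi-square per degree of freedom 1.82 to 6.40), so none was a copy of another.

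Members and lists were chosen with earlier results of these data known. Full values were given for members called beyond 0.5, for TRAIL, TNF, TWEAK and lymphotoxin receptor genes, for superfamily genes outside the symbol rule, and for at most 4 largest called changes per other list. TNFSF13, NGFR, CD40, TNFRSF14, TNFRSF4, TNFRSF8, CSF1, CD83, PAX8, KRT7, MUC16 and COL1A1 were named after their values were seen. The same holds for TRAF2, TRAF3, TAB2 and SHARPIN. Exon lengths, coordinates and overlaps came from GENCODE 44 lifted to GRCh37, which held 33556 of the genes. Genes of the family without a row were not analysed here, and some genes of the lists are not reported here. The scripts were tested on simulated data.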

Additional observations from a re-analysis of the deposited data

How the results depend on the processing

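Of the 10 called members, TNFSF9, TNFRSF12A, TNFRSF10B, TNFRSF1A, TNFRSF21 and TNFRSF25, 6 in all, passed the threshold under every alternative run. The other 4 had few counts or small changes, and their values stand beside them in the report. The count of higher members was 5, and 3 under total count scaling and 3 with DESeq2. With each library left out it ran from 2 to 5, and beyond 0.5 from 1 to 3. The count of lower members ran from 4 to 7 with a library left out and was 7 under total count scaling. Directions reversed for 2 scarce members that did not pass. With a library left out, the log2 fold change ran from -0.62 to 0.0018 for TNFRSF11A, positive without OV3/COX1KD replicate 3, and from -0.39 to 0.16 for TNFRSF13C, positive without OV3/COX1KD replicate 1 and without either of OV3/SCR replicates 2 and 3.

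Over 50 tested members and list genes, 592 values under alternatives gave 547 with the same direction and call, 37 that lost the call, 4 that gained it and 4 that reversed. With the replicate number as a block, 5 members were higher and 5 lower, and the call of all 50 genes was the same. Same-numbered libraries deviated together with correlations across genes of 0.0013, 0.048 and 0.022, a mean of 0.024 against -0.012 for different numbers. Of 6 libraries, 4 correlated best with their own number. The labels do not say whether libraries of the same number were passaged together. The numbers were therefore not taken as pairs in the main test, and the block is the alternative.

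The p-values rest on passages of a single clone in each condition, so variation from clone to clone is not covered. At 3 counts, a change of a scarce ligand was not detectable at this depth. Per-length levels depend on the exon lengths of GENCODE 44.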
